A study of Mus musculus with 18 samples.

Results

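The lymphoid progenitor cluster of newborn bone marrow (BM) comprised 388 of the 6208 hematopoietic progenitors (HPs) of the postnatal day 0 (P0) library, and of 56201 deposited cells in all. Its cells were those of the P0 HP library that the authors' cell table gives the code LymP, and the code occurred in no other library. They were compared with the 1505 P0 cells coded HSPC2, HSPC3 or HSPC4, the hematopoietic stem and progenitor cells (HSPCs), and with the 387 P0 cells coded Bcell1 or BCell2. The study asked how HPs change in BM between fetal life and adulthood. CD45+ Lin- Kit+ BM cells of C57B6/J mice, for which the labels give no treatment or altered allele, were sorted from pooled animals in fetal life (embryonic days 16.5 and 18.5, E16.5 and E18.5), on the day of birth and from adults. CITE-Seq, which reads mRNA and antibody tags from the same cell, gave 2 libraries at E16.5 and 1 at each other stage, so that differences at P0 or between stages have no replicate check and carry no test. The sort selected Kit+ cells, so lymphoid cells with little surface Kit were not sampled, and cells coded as B and T cells were present although the sort was Lin-. A separate set of stromal BM libraries was used here for shared barcodes only.

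Lymphoid progenitors arise from multipotent progenitors that display the cytokine receptor Flt3, and come to depend on the interleukin-7 receptor as they lose the capacity to form myeloid and erythroid cells. Some of them turn on Ebf1 and Pax5 and form B cells in the BM, while others migrate to the thymus, guided by chemokine receptors such as Ccr9 and Ccr7, where Notch1 directs them to the T lineage. Rag1 and Rag2 cut the antigen receptor genes and Dntt, a polymerase that adds untemplated bases at the joints, is known as a marker of these cells in the adult.

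The cells of the cluster held a median of 14392.5 UMIs and 3645 genes, close to HSPC2 (13934.5 UMIs), Bcell1 (15440.0) and below HSPC3 (22422) and HSPC4 (46141). The small BCell2 cluster of 61 cells was shallower (3499 UMIs), and the 5 HP libraries held between 13974733 and 127489333 UMIs. Of the P0 cells, 314 carried a barcode that occurred in another library, 4 of them in the cluster. Without them Flt3, Dntt and Il7r stood 2.48-fold, 143-fold and 21.5-fold above the HSPC codes, and with them 2.50-fold, 144-fold and 21.3-fold, the Dntt ratio resting on 2 UMIs in the HSPC codes (38.1 to 1220). Scrublet, a doublet caller, marked 3 P0 cells (0.0483%), none of them in the cluster, and at so low a rate it does not show whether doublets are present. When the P0 cells were clustered again, 325 of the 388 cells (83.8%) fell into 1 of 23 clusters, which also held 44 HSPC and 9 B cells.

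The label was checked with Flt3, Il7r and Dntt. Expression is given as CPM, the UMIs of a gene scaled by the summed UMIs of the cluster, with exact 95% intervals in parentheses that cover counting error only. Flt3, the receptor for Flt3 ligand, stood at 185 CPM (174 to 196) in the lymphoid progenitors. In HSPC2, HSPC3 and HSPC4 it stood at 83.6, 79.0 and 39.0 CPM, and in Bcell1 and BCell2 at 30.6 and 4.12 CPM. The lymphoid progenitors held the highest Flt3 level of the 20 P0 clusters, with dendritic cluster DC3 next at 92.9 CPM. Il7r, the interleukin-7 receptor chain, stood at 131 CPM (122 to 141), against 4.81, 6.34 and 8.36 CPM in the 3 HSPC clusters, 260.0 and 289 CPM in the B cell clusters and 332 CPM in TCell5. Il7r was thus 21.3-fold (18.2 to 25.1) above the HSPC codes and at 0.502 (0.460 to 0.548) of the B cell level. Dntt was highest in the lymphoid progenitors too, yet at 9.20 CPM (6.95 to 11.9), from 56 UMIs in 31 cells, with 62.5% of these UMIs in 10 cells. HSPC2, HSPC3 and HSPC4 held 0.0961, 0 and 0.199 CPM of Dntt, and Bcell1 and BCell2 3.15 and 4.12 CPM. All 3 markers were therefore present, with Dntt in few cells.

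To compare shares of cells, every cell was thinned to 5000 UMIs, which kept 385 of 388 lymphoid progenitors, 1491 of 1505 HSPC-coded and 332 of 387 B cells. Flt3 was detected in 59.0% of lymphoid progenitors (53.9 to 63.9), 30.3% of HSPC-coded cells and 11.4% of B cells. Erythroid cells (median 37938 UMIs) and mast cells (1498 UMIs, with 255 of 534 cells kept), which should lack Flt3, held it in 1.09% and 1.18%. Il7r was detected in 38.4% of lymphoid progenitors, 1.32% of HSPC2, 3.01% of HSPC3 and 63.6% of B cells. Its share was 0.218% in erythroid but 19.2% in mast cells, so the mast cells are no blank for Il7r. Dntt was detected in 12 of 385 lymphoid progenitors (3.12%, 1.62 to 5.38) and in 0 of 458 erythroid cells, where the interval allows up to 0.802%. The shares follow the depth: thinned to 2000 UMIs, 29.5% of the lymphoid progenitors held Flt3 and 20.2% Il7r, and without thinning 91.0% held Flt3, 58.2% Il7r and 7.99% Dntt.

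**Figure D1:**
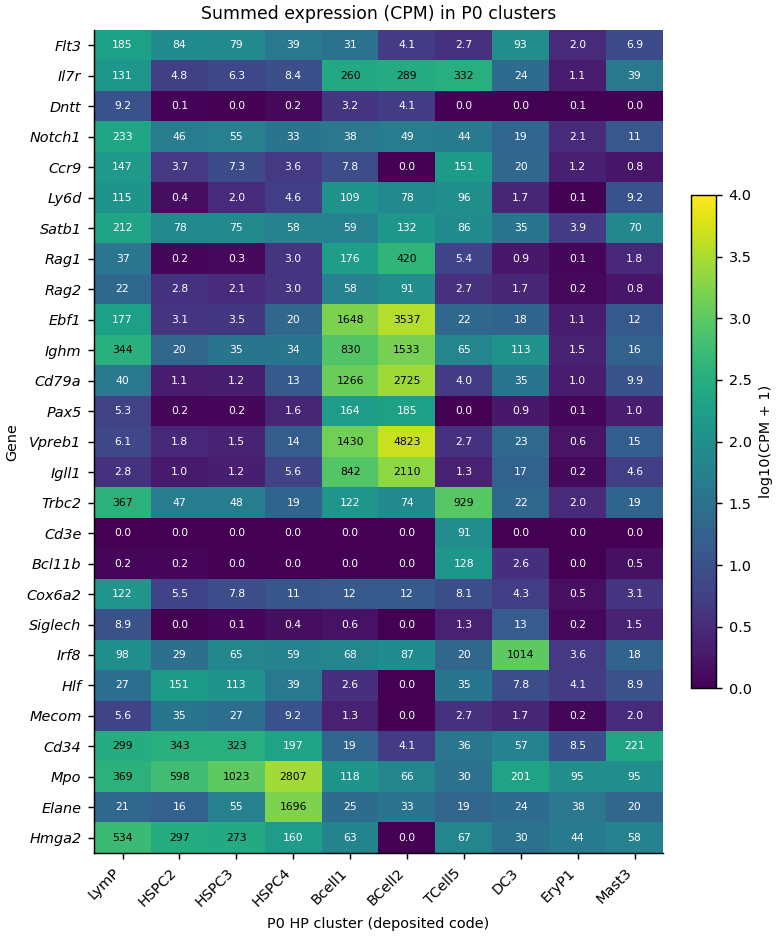
Summed expression of 27 genes in 10 P0 HP clusters, with the CPM printed in each cell and the color giving log10(CPM + 1). The LymP column combines the highest Flt3 level, 185 CPM, with Il7r at 131 CPM and Ebf1 at 177 CPM, while Cd3e stands at 0 and Igll1 at 2.79 CPM.

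Between the lymphoid progenitors and the HSPC codes, 11216 genes had at least 50 counts in both groups together, of which 500 were at least 2-fold higher in the lymphoid progenitors (4.46%) and 517 at least 2-fold lower (4.61%), with a median log2 ratio over all genes of -0.00. Against B cells, 1046 of 9412 genes were at least 2-fold higher (11.1%) and 539 at least 2-fold lower (5.73%), with a median of 0.13. The same cells were grouped by these genes, so ratios between clusters are descriptions. Of 20 lymphoid progenitor genes, 19 had enough counts against the HSPC codes. Of these, 14 were at least 2-fold higher and none at least 2-fold lower, with a median log2 ratio of 1.54. Runx2, Cd27, Ikzf1 and Tcf3 were among those between, at 1.12-fold to 1.91-fold. Against B cells, 7 of the 20 were at least 2-fold higher and 4 at least 2-fold lower. Cd27, a costimulatory receptor of lymphoid progenitors, stood 10.5-fold above B cells, and Runx2, a transcription factor, 9.91-fold. Satb1, a chromatin organizer of early lymphoid cells, stood at 212 CPM, against 73.1 in the HSPC codes and 62.1 in B cells.

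Among 17 cytokine receptors with enough counts, Il7r, Flt3 and Il6st were at least 2-fold above the HSPC codes and 3, Csf3r and Epor among them, at least 2-fold below. Csf3r, the receptor for granulocyte colony-stimulating factor, stood at 6.08 CPM against 19.4 CPM. Kit, used in the sort, stood at 113 CPM in the lymphoid progenitors, 155 CPM in the HSPC codes and 60.5 CPM in B cells. The partner chains of the interleukin-7 receptor differed less than Il7r itself. Il2rg, the chain shared with other interleukin receptors, was 1.27-fold and Crlf2, the receptor for thymic stromal lymphopoietin, 0.89-fold of the HSPC level.

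Notch1, which receives the T lineage signal, was highest in the lymphoid progenitors of all P0 clusters. It stood at 233 CPM (221 to 246), against 46.1, 55.2 and 33.0 CPM in HSPC2, HSPC3 and HSPC4 and 38.2 and 49.5 CPM in Bcell1 and BCell2, and was detected in 68.3% of thinned cells, against 1.09% of erythroid and 5.88% of mast cells. Of 14 Notch pathway genes with enough counts, 4 were at least 2-fold above the HSPC codes and none below. Besides Notch1 these were Hes1, a transcriptional target of Notch (111 against 25.3 CPM), Dtx4 (13.6 against 5.07 CPM) and the coactivator Maml3 (123 against 55.8 CPM). Nrarp, another target of Notch, stood at 4.44 CPM against 5.81, a ratio of 0.764 (0.490 to 1.15) whose interval spans 1, so Hes1 and Nrarp were not alike. Hes1 was as high in B cells (118 CPM) as in the lymphoid progenitors, with a ratio of 0.944 (0.847 to 1.05).

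Of 14 homing and adhesion genes, Ccr9, Ccr7 and Cd93 were at least 2-fold above the HSPC codes. Ccr9, the receptor for a chemokine of thymus and gut, stood at 147 CPM (137 to 156), against 3.65, 7.29 and 3.58 CPM in the HSPC clusters, 7.78 CPM in Bcell1 and 0 in BCell2. Only TCell5, at 151 CPM, reached the level of the lymphoid progenitors among the other 19 P0 clusters. Ccr9 was detected in 35.8% of thinned lymphoid progenitors, 0.873% of erythroid and 0.392% of mast cells. Ccr7, which also guides cells into lymphoid organs, stood at 9.20 CPM from 56 UMIs, 19.2-fold (10.7 to 36.6) above the HSPC codes. Cxcr4, the receptor that retains cells in BM, stood at 41.7 CPM against 26.6.

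**Figure D2:**
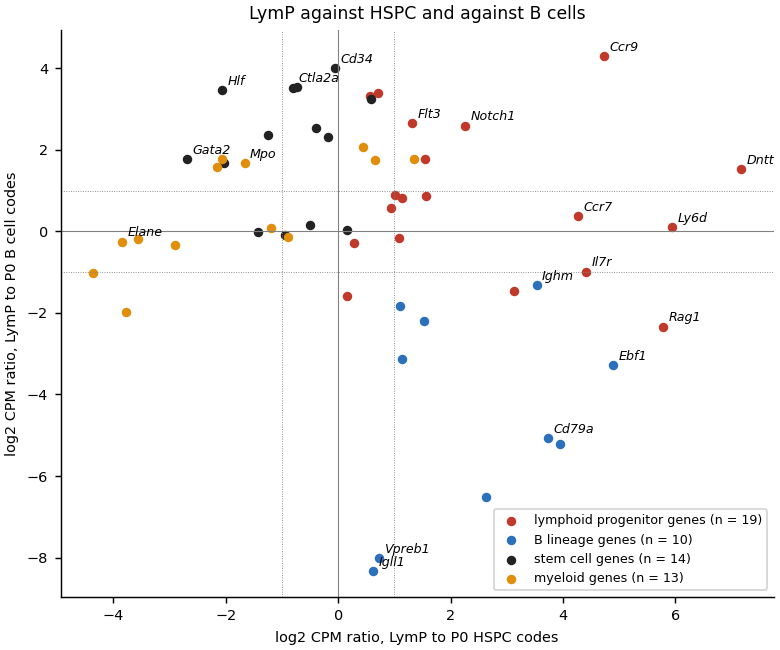
Each point is a gene with at least 50 counts in both comparisons and placed by its log2 CPM ratio of lymphoid progenitors to HSPC codes (horizontal) and to B cell codes (vertical), with dotted lines at 2-fold. Ccr9, Flt3 and Notch1 lie at the upper right, above both groups, whereas Rag1, Ebf1 and Cd79a lie at the lower right, above HSPC and below B cells.

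V(D)J recombination genes differed among themselves. The cutting enzymes stood far above the HSPC codes and below B cells: Rag1 at 36.8 CPM against 0.670 and 186, and Rag2 at 21.5 CPM against 2.46 and 59.6. Of the factors that join broken ends, Xrcc6, the Ku70 subunit that binds DNA ends, stood at 188 CPM against 53.2 in the HSPC codes, 3.53-fold (3.27 to 3.81), while its partner Xrcc5 stood at 1.08-fold. Prkdc, Xrcc4, Nhej1 and Dclre1c lay between 1.06-fold and 1.40-fold. In all, 4 of 11 genes of this list were at least 2-fold above the HSPC codes and none below.

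B lineage genes were partly present. Of 10 with enough counts, 8 were at least 2-fold above the HSPC codes, and all 15 were at least 2-fold below B cells, with a median log2 ratio of -5.07. Ebf1, the factor that opens the B cell program, stood at 177 CPM (167 to 188) against 5.93 in the HSPC codes and 1729 in B cells. Mzb1, an endoplasmic reticulum protein of B cells, stood at 275 CPM against 14.3 and 1299.7, and Ighm, the immunoglobulin μ constant region, at 344 CPM against 29.8 and 861. Pax5, which fixes B cell identity, stood at 5.26 CPM from 32 UMIs against 165 in B cells. Lef1, a factor of early B and T cells, had no UMI, with an upper limit of 0.606 CPM against 233 CPM in B cells. Vpreb1 and Igll1, the surrogate light chain, stood at 6.08 and 2.79 CPM, and 11 and 9 other P0 clusters, among them HSPC4 with 14.3 and 5.57 CPM, held more.

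B lineage genes did not stand in the same proportion to Ebf1 in both clusters. Per 100 Ebf1 UMIs, lymphoid progenitors held 22.4 UMIs of Cd79a, 3.44 of Vpreb1, 11.2 of Vpreb3, 1.58 of Igll1 and 194 of Ighm. The B cells held 76.8, 91.2, 105, 51.9 and 49.8. Pax5 was also lower relative to Ebf1, at 2.97 against 9.55, whereas Cd79b (45.4 against 40.4, with 39.6 in Bcell1 and 48.7 in BCell2), Rag1 (20.8 against 10.8) and Il7r (74.2 against 15.1) were, like Ighm, higher in the lymphoid progenitors. These ratios were added after the values were seen.

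Of 7 T lineage genes with enough counts, Trbc2, Trbc1, Lck and Cd247 were at least 2-fold above the HSPC codes and none below. Trbc2, a T cell receptor β constant region, stood at 367 CPM (352 to 382), against 43.3 in the HSPC codes, 119.9 in B cells and 929 in TCell5. Trbc1 stood at 36.1 CPM against 977 in TCell5, and reads of these near-identical genes may not be fully separated. The defining T cell genes were close to 0. Among the 6087394 UMIs of the cluster, Cd3e had no UMI (up to 0.606 CPM), Cd3d 1, Bcl11b 1 and Cd3g 13. In TCell5 these genes stood at 91.5, 295, 128 and 467 CPM, a unit other than the UMI counts of the cluster. Per 100 Trbc2 UMIs, lymphoid progenitors held 0.582 UMIs of Cd3g and TCell5 50.2. Tcf7, a target of Notch in early thymocytes, stood at 8.71 CPM against 4.53 in the HSPC codes and 297 in TCell5.

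Genes of natural killer and innate lymphoid cells differed in both directions. Klrd1, a natural killer receptor chain, stood at 17.1 CPM against 0.766 in the HSPC codes, Nfil3 at 17.1 against 3.73, Id2 at 47.5 against 15.7 and Tox at 15.8 against 6.41 CPM, whereas Zbtb16 and Rora stood at 0.340 and 0.446 of the HSPC level. In all, 5 of 9 such genes were at least 2-fold higher and 3 at least 2-fold lower. Among 9 dendritic cell genes, Cox6a2 and Siglech were at least 2-fold above the HSPC codes and H2-Eb1 and H2-Aa at least 2-fold below. Cox6a2, a cytochrome c oxidase subunit known from muscle and plasmacytoid dendritic cells, stood at 122 CPM (114 to 131), and no other P0 cluster exceeded 12.4 CPM. Siglech, a lectin of plasmacytoid dendritic cells, stood at 8.87 CPM, below Mono2 at 126 CPM, and Irf8 at 98.1 CPM, against 1014 in DC3.

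Several genes of hematopoietic stem cells were lower than in the HSPC codes, with 10 of 19 at least 2-fold lower, none at least 2-fold higher and a median log2 ratio of -1.26. Hlf stood at 27.3 CPM (23.3 to 31.7) against 151, 113 and 39.4 in HSPC2, HSPC3 and HSPC4, and Mecom at 5.59 CPM against 35.1, 27.3 and 9.16. Both encode transcription factors of stem cells, and both were lowest in the lymphoid progenitors among these 4 clusters. Gata2 stood at 7.23 against 46.9 CPM. Other genes of this list differed little: Cd34, a progenitor surface protein, stood at 299 against 309 CPM, and Meis1, a homeobox factor, at 57.7 against 65.5. Hoxa9, its partner, stood at 93.1 CPM, the highest level of the P0 clusters.

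Myeloid genes were lower as well, with 11 of 15 at least 2-fold lower than in the HSPC codes and 1, Ly86, at least 2-fold higher. These ratios rest in part on the small HSPC4 cluster. Elane, neutrophil elastase, stood at 21.4 CPM in lymphoid progenitors and at 16.4, 55.2 and 1696 CPM in HSPC2, HSPC3 and HSPC4. Mpo, myeloperoxidase, differed less among them, at 369 CPM in lymphoid progenitors against 598, 1023 and 2807 CPM. Cebpa, the factor that starts granulocyte development, stood at 7.23 CPM against 28.4, 28.2 and 41.8. Erythroid and megakaryocyte genes (8 of 10) and mast cell, basophil and eosinophil genes (9 of 10) were also at least 2-fold below the HSPC codes, and of 3 stromal genes none was 2-fold apart.

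Genes of fetal progenitors differed among themselves. Hmga2, a chromatin protein of fetal stem and progenitor cells, was highest in the lymphoid progenitors of all P0 clusters, at 534 CPM (516 to 552), against 297, 273 and 160.0 in HSPC2, HSPC3 and HSPC4 and 63.4 in Bcell1. Lin28b, which blocks the let-7 microRNAs, stood at 23.5 CPM against 19.5 in the HSPC codes and 24.8 in B cells, and Igf2bp3, an RNA-binding protein of fetal progenitors, at 127 against 85.5 and 99.0. Of 8 such genes, 1 was at least 2-fold above the HSPC codes and 1, H19, at least 2-fold below.

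Within the cluster, single cells differed in which genes they held. Ebf1, Trbc2 and Hlf were detected in 38.7%, 59.0% and 9.87% of thinned lymphoid progenitors, against 0.873%, 1.09% and 1.53% of erythroid cells, and Mpo in 62.6% against 20.3%, the highest erythroid share of these 4 genes. In the erythroid cluster EryP1, Rag1 stood at 0.116 CPM, Ly6d at 0.0581 CPM and Ighm at 1.51 CPM. All 15 B lineage genes, Cd79a among them, summed there to 12.1 CPM. Among the 385 thinned cells, Rag1 and Cd79a were found together in 23 cells, where the product of their single shares gives 4.24 cells, and Rag1 and Ebf1 in 38 where the product gives 16.6. Il7r and Ebf1 coincided in 76 cells (product 57.3). Ebf1 and Hlf, in contrast, coincided in 2 cells (product 14.7), and Il7r and Hlf in 5 (product 14.6). Ebf1 and Il7r thus coincided with the stem cell factor Hlf in fewer cells than the products give, whereas Ighm and Hlf coincided in 27 cells (product 27.9). The homing receptor Ccr9 behaved otherwise: it coincided with Ebf1 in 63 cells (product 53.4), with Trbc2 in 107 (product 81.4), with Hlf in 20 (product 13.6) and with Mpo in 59 (product 86.4). Flt3 coincided with Il7r in 84 cells and with Ccr9 in 82, close to the products of 87.3 and 81.4.

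**Figure D3:**
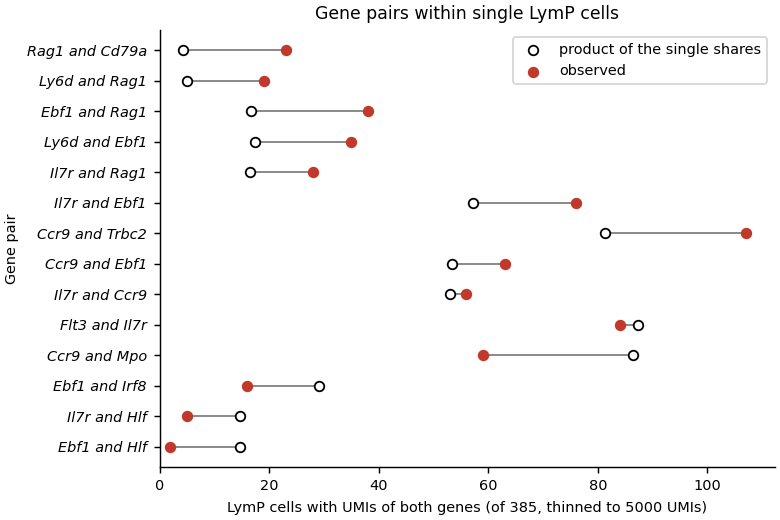
Number of the 385 thinned lymphoid progenitors that held UMIs of both genes of a pair (filled) and the number given by the product of the single shares (open). Rag1 with Cd79a, Rag1 with Ebf1 and Ly6d with Rag1 lie above the product, and Ebf1 with Hlf, 2 cells against 14.7, below it.

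Ly6d, a surface protein that marks B-biased lymphoid progenitors in the adult, was concentrated in few cells. Its 703 UMIs came from 61 cells, 64.0% of them from 10 cells and 153 from 1 cell, so that its level of 115 CPM (Bcell1 109, HSPC codes 1.88 CPM) describes a minority. The 45 cells in which Ly6d was detected after thinning were compared with the other 340, which is a split chosen after the values were seen. Cd79a stood at 162 CPM in cells with Ly6d and 23.9 in the others, Rag1 at 104 and 28.2, Ebf1 at 446 and 142, and Il7r at 248 and 116. Over the whole cluster 10 cells held 52.3% of the Cd79a UMIs and 10 cells held 33.5% of the Rag1 UMIs, so these summed levels can rest on few cells. As shares of thinned cells, Rag1 was detected in 42.2% of cells with Ly6d and 7.06% of the others, and Ebf1 in 77.8% and 33.5%. Pax5 stood at 23.1 and 2.97 CPM, from 16 UMIs each. Hlf had 1 UMI in cells with Ly6d (1.44 CPM) against 30.6 CPM in the others, Ctla2a stood at 73.6 against 492 and Cd34 at 131 against 319 CPM. Flt3, Notch1 and Ccr9 levels differed by at most 1.13-fold, although Ccr9 was detected in 53.3% of cells with Ly6d and 33.5% of the others. Siglech and Irf8 were also higher in cells with Ly6d, at 41.9 against 4.64 and 248 against 78.9 CPM, as were the mast cell genes Cpa3 (34.6 against 7.98 CPM) and Tpsb2 (15.9 against 3.71 CPM), whose part in the split was not tested. Depth was alike, with medians of 15047 and 14335.5 UMIs.

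The antibody counts did not enter the clustering. They are not independent of it, because the clusters rest on mRNA of the same cells and the paper reports that tags and mRNA correlated. CD135 is the protein of Flt3, Sca-1 marks stem and multipotent progenitors, and CD48 and CD150 separate multipotent progenitors from stem cells. Antibody counts were transformed to centered log-ratios (CLR) within the library, with a CLR over 1 taken as positive. CD135 was positive on 49.0% of lymphoid progenitors (43.9 to 54.1), 11.6% of HSPC2, 17.4% of HSPC3 and 9.30% of B cells, with DC3 next highest at 29.8%. CD135 had few counts, 5021 in the library, and a median of 2 per lymphoid progenitor. CD150 was positive on 3 of 388 lymphoid progenitors (0.773%, 0.160 to 2.24) and on 14.4% of HSPC-coded cells. A CD150+ cell held at least 4 counts, and 36.6% of lymphoid progenitors and 54.8% of HSPC-coded cells held any, so CD150- does not mean without the tag. Sca-1 was positive on 52.1% of lymphoid progenitors (47.0 to 57.1), against 50.7% of HSPC-coded cells (48.1 to 53.3), 41.9% of B cells (36.9 to 47.0), 80.9% of DC3 and 1.85% of the myeloid cluster MyP2. A Sca-1+ cell held at least 10 counts, which was the median of both lymphoid progenitors and HSPC-coded cells. Their upper quartiles were 29 and 56 counts and their means 24.5 and 42.9, so like shares do not mean like levels. CD48 was positive on 30.9% of lymphoid progenitors (26.4 to 35.8) against 51.7% of HSPC-coded cells, with a median raw count of 125. All cells of both groups held CD48 counts, and a positive cell held at least 151, so CD48- does not mean without the tag. These shares depended on the CLR level: between levels of 0.75 and 1.5 that of CD48 ranged from 66.8% to 0.515%, that of CD135 from 67.8% to 17.0% and that of Sca-1 from 65.5% to 32.2%, and with CLR over all HP libraries 83.5% were CD48+. Antibodies to CD127, the protein of Il7r, gave 146 counts over the whole library, too few to describe it.

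**Figure D4:**
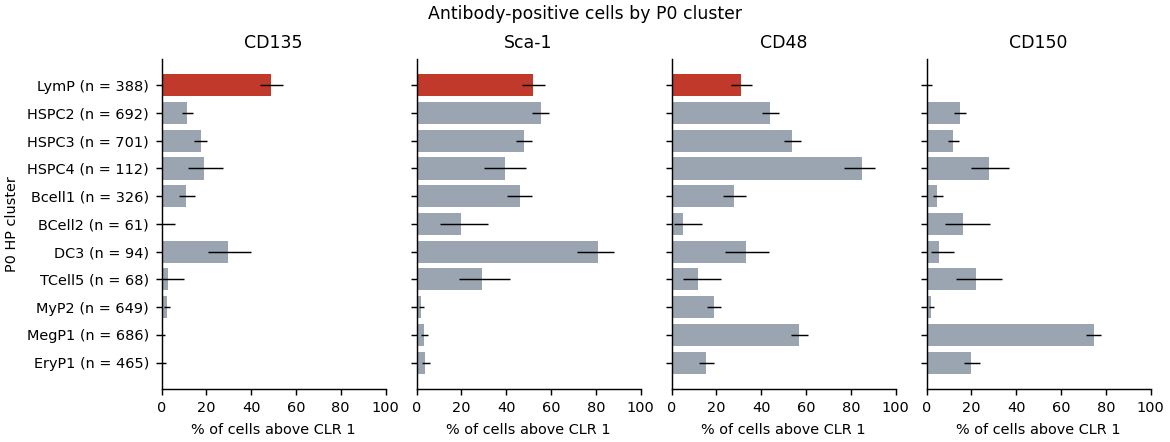
Share of cells above a CLR of 1 for 4 antibodies in 11 P0 HP clusters, with exact 95% binomial intervals as error bars and the lymphoid progenitors in red. Of the clusters drawn, LymP has the highest CD135 share, 49.0%, and the lowest CD150 share, 0.773%.

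Together, 121 lymphoid progenitors were Sca-1+ CD135+ CD150-, a gate that takes in lymphoid-primed multipotent progenitors within Kit+ cells. This was 31.2% of them (26.6 to 36.1), against 9.24% of HSPC-coded cells, 5.17% of B cells and 27.7% of DC3, and 37.0% of all 327 P0 cells in the gate. At a CLR level of 1.5 the share was 7.73% and that of DC3, 10.6%, was above it. The paper also requires CD48 on its CD135+ multipotent progenitors, and this gate did not. These shares are therefore not those of the paper's population. No lymphoid progenitor was in either Sca-1+ CD135- CD150+ gate, which the interval limits to 0.946%. With 3 of 388 cells CD150+, these empty gates add little to the CD150 share given above. A share of 5.41% were Sca-1+ CD135- CD48+ CD150-. This last share rests on the cut of 151 CD48 counts, while all lymphoid progenitors held CD48 counts. Within the cluster, CD135+ and CD135- cells (190 and 198) had similar Flt3 mRNA, 189.9 and 179 CPM, with a ratio of 1.06 (0.939 to 1.19). A CD135+ cell held at least 3 CD135 counts, and 84.8% of lymphoid progenitors held at least 1. The CD135- cells therefore did not all lack the tag, and the split separates small counts. Ebf1, Ccr9 and Il7r were 1.45-fold, 1.36-fold and 1.35-fold higher in CD135+ cells, and Rag1 1.64-fold (1.24 to 2.19). Hlf stood at 0.685 (0.497 to 0.942) and Ly6d at 0.535 (0.457 to 0.625) of the level in CD135- cells. For each gene 10 cells held many of the UMIs in the cluster: 64.0% for Ly6d, 42.2% for Hlf and 33.5% for Rag1. The intervals do not cover this concentration. The CD135+ cells also had more antibody counts (median 169 against 127.5) and UMIs (15590.5 against 13347.5), whose part in these ratios was not tested.

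By the authors' cell cycle calls, 22.2% of lymphoid progenitors were in G1, 46.4% in S and 31.4% in G2/M. HSPC2 had 25.9%, 59.0% and 15.2%, HSPC3 0%, 54.6% and 45.4%, and Bcell1 0.613%, 42.3% and 57.1%. In cells thinned to 5000 UMIs, 15 G2/M genes gave 7.94 ± 9.88 UMIs per lymphoid progenitor (SD over cells) with a median of 3, so that a minority of cells held most of them. The mean was 3.66 and the median 2 in HSPC2, 12.0 and 11 in HSPC3, and 25.5 and 22 in Bcell1. For 15 S phase genes, including the replication clamp Pcna, the mean was 7.86 ± 5.29, against 7.91 in HSPC2 and 14.9 in Bcell1. None of these 30 genes differed 2-fold from the pooled HSPC codes, which mix HSPC2 and HSPC3 of unlike G2/M levels. Against B cells, 13 of 15 G2/M genes, Mki67 and Plk1 among them, were at least 2-fold lower.

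At the other stages no cluster carried the code, so the genes were read in the HSPC-coded cells, of which the E16.5 libraries held 33 and 165, the E18.5 library 388 and the adult library 629. Codes were set by the authors at each stage, and an HSPC code elsewhere may hold cells that at P0 were coded LymP. For P0, levels are therefore given also for HSPC and LymP cells together. Over 277 listed genes, with log2(CPM + 1) values that share genes and chemistry, the cluster most like the lymphoid progenitors was HSPC2 of E18.5 (Pearson's r = 0.944), ahead of the myeloid cluster MyP1 of E18.5 (0.889), P0 HSPC3 (0.886), P0 HSPC2 (0.868) and adult HSPC5 (0.848). Small clusters were not ranked, the 33 HSPC-coded cells of the first E16.5 library among them.

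Dntt, Ccr9 and Trbc2 differed widely between stages. HSPC-coded cells of both E16.5 libraries held no Dntt UMI (up to 4.42 and 1.15 CPM), those of E18.5 held 3.79 CPM and adult ones 336 CPM (321 to 352). Newborn HSPC and LymP cells together held 1.55 CPM, and the lymphoid progenitors alone 9.20 CPM. Adult cells coded Pre/Pro-B held 572 CPM. In HSPC-coded cells Ccr9 was highest in the fetus, with 86.3 and 69.9 CPM in the E16.5 libraries and 95.5 CPM by E18.5, and lowest in adult cells with 3.67 CPM, while newborn HSPC and LymP cells together held 28.4 CPM. Trbc2 followed this direction, from 156 and 1107 CPM in the E16.5 libraries, which were far apart, and 183 CPM by E18.5 to 95.8 CPM in newborn and 1.65 CPM in adult cells. Markers of other cells also differed between these HSPC codes. The T lineage list summed to 264 and 1938 CPM in the E16.5 libraries and 226 CPM by E18.5, the dendritic list to 18463, 7503 and 702 CPM, and the list of mast cell, basophil and eosinophil genes to 3856, 4628 and 42.5 CPM, and their part in the stage differences was not tested. Il7r varied less than Trbc2: both E16.5 libraries held 75.5 CPM, the E18.5 library 46.6, newborn cells 26.5 and adult cells 40.9. Hmga2 stood at 225, 176, 356, 307 and 38.0 CPM in the same order. Lin28b had no UMI in adult HSPC-coded cells.

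**Figure D5:**
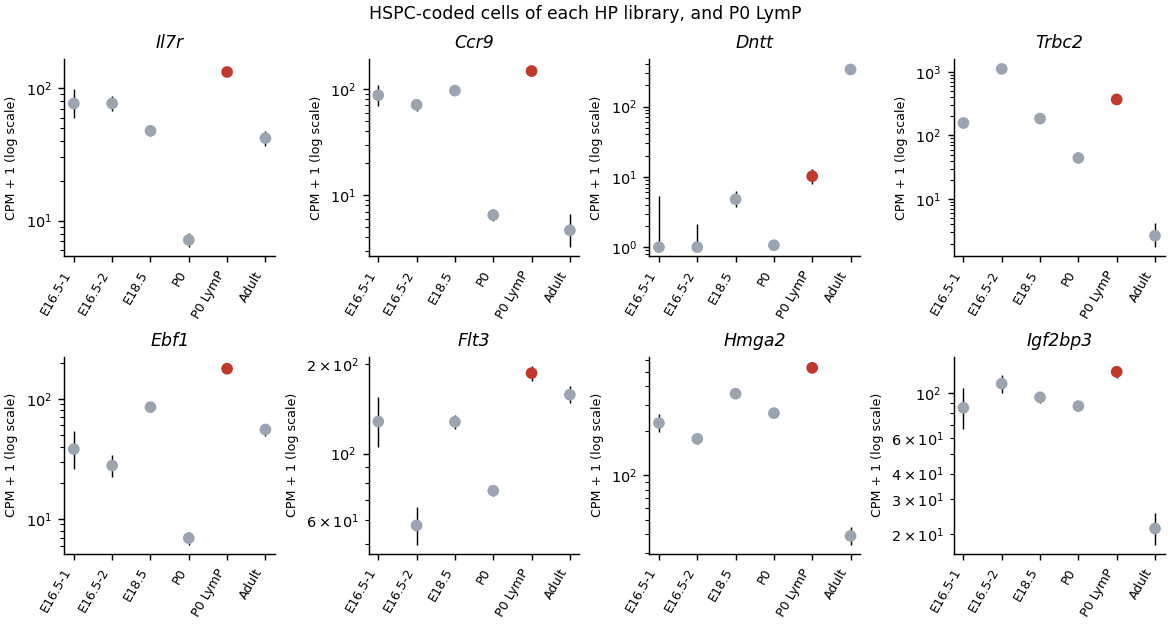
CPM + 1 on a log scale of 8 genes in HSPC-coded cells of the 5 HP libraries (gray) and in the P0 lymphoid progenitors (red), with exact 95% Poisson intervals. Dntt is at 336 CPM in adult HSPC-coded cells and 9.20 in the P0 lymphoid progenitors, whereas Ccr9 is at 3.67 and 147 CPM. This sets a whole HSPC code against a selected cluster. In P0 HSPC2, HSPC3 and HSPC4, Ccr9 stood at 3.65, 7.29 and 3.58 CPM and Dntt at 0.0961, 0 and 0.199 CPM. P0 HSPC and LymP cells together are not drawn.

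Counted over all cells of a library thinned to 2000 UMIs, Flt3 and Ccr9 occurred together in 35 of 5899 P0 cells (0.593%, 0.414 to 0.824), of which 28 were lymphoid progenitors. The E18.5 library held 20 such cells of 2471 (0.809%, 0.495 to 1.25), all coded HSPC2. The E16.5 libraries held 1 of 538 and 2 of 4717 cells, and the adult library 5 of 4487. Flt3 and Dntt occurred together in 0 cells of either E16.5 library, 1 of the E18.5 library, 3 at birth and 98 in adult BM (2.18%, 1.78 to 2.66), so that from birth to adulthood the share of this pair was higher and that of Flt3 with Ccr9 lower. The 3 newborn cells were lymphoid progenitors, and 79 of the adult cells were coded HSPC5. Thinning left out 22 and 35 cells of the E16.5 libraries, 1006 of E18.5, 309 newborn and 1498 adult cells.

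Some pairs lay on the same side of the product at other stages in HSPC-coded cells, and others did not. Rag1 and Ebf1 coincided in 18 of 383 E18.5 cells (product 2.98), 39 of 1876 P0 HSPC and LymP cells (4.53) and 14 of 489 adult cells (1.34). Il7r and Hlf coincided in 4 (19.4), 10 (64.8) and 2 (17.1). Ebf1 and Hlf coincided in 2 E18.5 cells (23.1) and 11 P0 cells (62.4), and, closer to the product, in 7 adult cells (11.5). Ccr9 and Hlf, above the product within the lymphoid progenitors, were below it in E18.5 cells (21 against 26.3), with 2 adult cells against 2.24. Il7r and Ccr9 coincided in 18 E18.5 cells (8.15) and 60 P0 cells (16.8), whereas within the lymphoid progenitors alone they coincided in 56 cells, close to the product of 53.0. All P0 numbers here pool LymP with HSPC clusters of other Il7r, Ccr9, Ebf1, Rag1 and Hlf levels, so their distance from the product does not describe pairing within a cluster. The HSPC codes of E18.5 and the adult may hold such a mixture too, so the same limit applies to their numbers. These pairs at other stages were added after the values at P0 were seen.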

How the data were processed

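UMI counts per gene and cell of 5 HP libraries and antibody counts of the same cells were used as deposited. The authors made them with Cell Ranger 3.1.0 on mm10, aggregated the libraries, and filtered in Seurat 3.1.5, excluding cells in the top 2% by genes or UMIs, with no other doublet step stated. In the authors' deposited cell table the mitochondrial share is a fraction and the hscScore a score, and neither entered a comparison. Codes and phases came from this table, of which 8 further columns were not used. UMIs of a group were summed to CPM, with exact Poisson intervals for levels, conditional binomial intervals for ratios and Clopper-Pearson intervals for shares, all at 95%. Genes needed 50 counts in both groups together. Cells were thinned to 5000 or 2000 UMIs. With 1 P0 library no test was run. The step that finds 2-fold genes was tested on simulated data. Clusters were recomputed with scanpy 1.11.5 (2000 variable genes, 30 principal components, 20 neighbours, Leiden resolution 1). Other steps used Python 3.11.15, numpy 2.4.6, scipy 1.17.1, pandas 2.3.3 and matplotlib 3.10.9. Genes named are those of 20 lists and the 10 of largest ratio in each direction that reached 100 CPM where higher, mitochondrial and ribosomal genes and Gm42418 left out. Some genes of the lists are not reported here. The cluster and the lists were chosen with earlier results of these data known. Alternatives changed the count filter, scaling, comparison cells, doublets, clusters and CLR settings.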

Additional observations from a re-analysis of the deposited data

How the results depend on the processing

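The counts of genes at least 2-fold apart moved mainly with the minimum count. Against HSPC codes they were 1017, but 1854 at a minimum of 10 counts and 493 at 200. Against B cells they were 1585, but 2713 and 730. Against each HSPC code alone they were 758, 826 and 1106, and against Bcell1 or BCell2 alone 1660 and 2226. The higher genes made up 66.0% of those past 2-fold against B cells, but 59.3% with median-of-ratios scaling and 52.3% at 200 counts. Against HSPC3 and HSPC4 alone they made up 60.2% and 66.5%, against 49.2% for all HSPC codes. Leaving out cells with shared barcodes, lymphoid progenitors among the highest 5% of Scrublet scores, or G2/M cells gave 1000, 1036 and 931 against HSPC codes. All of these were chosen after seeing the data. Shares of antibody-positive cells depended on the CLR setting (level 0.75, level 1.5, and where moved, CLR over all HP libraries). CD48 gave 66.8%, 0.515% and 83.5%, Sca-1 65.5%, 32.2% and 65.5%, CD135 67.8% and 17.0%, and the Sca-1+ CD135+ CD150- gate 46.1%, 7.73% and 36.1%. The Flt3 ratio to the pooled HSPC codes ranged from 2.28 to 2.71 and the Il7r ratio from 21.3 to 25.3. These ranges do not cover single HSPC codes. HSPC2, HSPC3 and HSPC4 held 83.6, 79.0 and 39.0 CPM of Flt3 and 4.81, 6.34 and 8.36 CPM of Il7r. The Dntt ratio of 144 became 288 without cells marked by Scrublet. Of the values for single genes and clusters under an alternative, 84 moved by more than their counting interval and 50 did not. The ratios of Flt3, Il7r and Dntt kept their direction, but the slight excess of lower genes against HSPC codes (49.2% higher) became an excess of higher ones at 200 counts (55.0%) and against HSPC2 (51.7%), HSPC3 or HSPC4 alone, and at level 1.5 the gate share fell below that of DC3 (10.6%). No paired analysis was possible because no comparison had replicates sharing numbers, and leaving out a replicate was possible only for the E16.5 levels, given per library above. Intervals hold counting error only and not the spread between pools of mice, and genes under 50 counts, Pax5 against the HSPC codes among them, were not read as ratios.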

Other observations

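Interferon-inducible and class I antigen presentation genes were not below the HSPC codes by 2-fold in any of 16 cases, and 4 were at least 2-fold above. Ifi27l2a stood at 244 CPM (232 to 257) against 55.0 in the HSPC codes and 135 in B cells, Isg15 at 125 against 57.2 and 26.4, Irf7 at 77.4 against 38.2 and 14.4, and Ifit3 at 7.89 against 1.98 and 2.13. B2m, the shared light chain of class I molecules, stood at 1.23-fold of the HSPC level. Of 7 Gimap genes, which encode GTPases of lymphocytes, 4 were at least 2-fold above the HSPC codes, led by Gimap4 at 25.6 against 3.51 CPM and Gimap7 at 15.9 against 2.97 CPM. Against B cells, 2 of 8 were at least 2-fold higher and 2 at least 2-fold lower, Gimap4 (0.31-fold) and Gimap3 (0.20-fold).

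Among 18 transcription factors and Id proteins, some of which are also in the lists above, Id2 and Tcf4 were at least 2-fold above the HSPC codes and Id1, Tal1 and Ikzf2 at least 2-fold below. Id3, an inhibitor of E proteins, stood at 17.6 CPM against 366 in B cells, and Tcf3, the E protein E2A, at 72.8 against 218 CPM. Of the genes with the largest ratios over B cells, the chemokines Ccl4 and Ccl3 stood at 299.8 and 144 CPM in the lymphoid progenitors, 74.9 and 40.3 in the HSPC codes and 9.75 and 6.74 in B cells. Eos/Bas3 held more of both, 2576 and 2197 CPM. In the lymphoid progenitors 241 cells held a Ccl4 UMI before thinning, with 23.5% of its UMIs in 10 cells.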
